A study of Mus musculus with 12 samples.

Results

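RNA-seq of brain myeloid cells was compared between mice that received a bone marrow transplant (BMT) without a head shield and mice that received it with one, in the state without lipopolysaccharide (LPS). All genes of the deposited count table entered the comparison, and the samples were chosen by title: 3 unshielded and 3 shielded libraries, 6 of the 12 in the series. Every library came from the brain of a wild type adult male C57BL/6J mouse labelled as 6 months old. After the transplant all mice, of both groups, ate food with PLX5622, which blocks the receptor for CSF1 and so depletes microglia, for 2 weeks and then standard chow. They were injected intraperitoneally 6 weeks later, with saline in these groups, and cells were collected 6 hours after the injection by magnetic sorting for CD11b, a surface integrin of myeloid cells. The other 6 libraries, 3 in each shield group, came from mice given 50 µg of LPS. They served only to see whether the differences recurred. For shielded libraries 2 and 3 the treatment field says LPS although the titles place them in the group without it. The groups follow the titles, and results without these libraries stand beside the main ones. The labels name neither the marrow donor nor whether the libraries of a group came from separate mice, so the spread behind the p-values is that between these libraries and may be technical. All groups had a transplant and PLX5622, and a group without either was not analysed here.

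Microglia are the macrophages of the brain tissue. They arise from embryonic precursors, renew themselves within the brain, and hold a distinctive program that includes the transcription factor Sall1 and the receptors P2ry12 and Tmem119. When microglia are depleted, surviving microglia can refill the tissue, and macrophages from the blood can also settle there, more readily after the brain has been irradiated. A head shield keeps the brain out of the field while the marrow is still replaced. The shield thus bears on the brain's exposure as well as on the entry of macrophages, and their parts cannot be told apart in these groups. The series title names such incoming macrophages and an identity that sets them apart from microglia.

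Library totals ran from 28770354 to 42931839 counts in the shielded group and from 18090977 to 40792878 in the unshielded group, with unshielded library 2 the shallowest. On 10 genes that rise with LPS, the mean log2(CPM + 1), where CPM is the count scaled to the library's size, was 3.95, 3.64 and 3.30 in shielded libraries 1, 2 and 3 and 3.46, 3.44 and 4.59 in the unshielded ones, and edgeR called 0 of the 10 different (Saa3, Il1rn and Tnf had an unadjusted p under 0.05, and DESeq2 called these 3). Saa3, an acute phase gene, stood at 1.38, 0.388 and 0.412 CPM in the shielded and 0.707, 1.11 and 29.5 in the unshielded libraries, so unshielded library 3 stands apart. In the 6 libraries of mice given LPS it stood at 889, 663 and 831 CPM in the shielded and 559, 945 and 820.3 CPM in the unshielded group, far above the 2 libraries whose labels conflict. Libraries of 1 group differed beyond sampling noise, with a chi-square per degree of freedom of at least 11.4, so each was counted as 1 sample. The sort is a bulk sample, in which fewer cells of a type and less RNA of its genes per cell cannot be told apart. Markers of microglia were present, with 0 of 30 genes of the microglia list under 1 CPM in all 6 libraries. Of 10 T cell markers 9 were under 1 CPM in all 6 libraries, as were 7 of 7 red cell and 6 of 6 mast cell markers. Markers of other cells were present. Summed choroid plexus and ependymal markers ran from 59.2 to 127 CPM in shielded and from 104 to 161 CPM in unshielded libraries. Of these 8 genes edgeR called 0 and DESeq2 2. Without overlap, 4 of 9 astrocyte markers were higher and 1 lower in unshielded libraries, beside 14.2% and 19.4% of all tested genes. Summed B cell markers ran from 438 to 533 CPM in shielded and from 359 to 423 CPM in unshielded libraries. Neuron and oligodendrocyte markers had a mean log2 CPM of 5.29 ± 0.455 (SD, n = 3) in shielded and 5.30 ± 0.0576 in unshielded libraries (exact two-sided permutation test, p = 0.9, where 0.1 is the smallest p that 3 against 3 can give), and edgeR and DESeq2 called 0 of their 11 and 10 genes, with 0 at an unadjusted p under 0.05.

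Without LPS, 2043 of 18875 tested genes (10.8%) differed between unshielded and shielded libraries at an adjusted p under 0.05 in edgeR's quasi-likelihood test. Such genes are referred to as called. Of them 751 (3.98%) were higher and 1292 (6.85%) lower in the unshielded libraries. Changes of at least 2-fold were found for 325 higher (1.72%) and 338 lower genes (1.79%), and of at least 4-fold for 72 and 57. The median over all tested genes was -0.00 on the log2 scale, and all differences below are log2 differences, unshielded minus shielded, with a standard error (SE) from the fit. Without the 2 shielded libraries whose labels conflict, 310 genes were called, 114 higher and 196 lower. That fit has 1 shielded library, which is assumed to vary like the other groups. Of the 2043 genes, all kept their direction in that fit and 308 stayed called. With those 2 libraries moved to the LPS group, as their treatment field has it, edgeR called 0 genes, 795 had an unadjusted p under 0.05, and all 2043 kept their direction. Without shielded library 1 and unshielded library 3, the libraries with the highest LPS-gene means of their groups, 781 were called, 387 higher and 394 lower. Leaving out 1 library of the 6 at a time gave from 1156 called genes (without shielded library 2) to 1781 (without shielded library 3), with 1164 without unshielded library 3 and 1341 without unshielded library 1. Of the 166 called genes named in the text, 131 were called in all 6 of these fits. All 166 kept their direction without the 2 conflicting libraries. Called genes were chosen on these same libraries, so refits with libraries left out or moved could hardly change their direction.

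**Figure D1:**
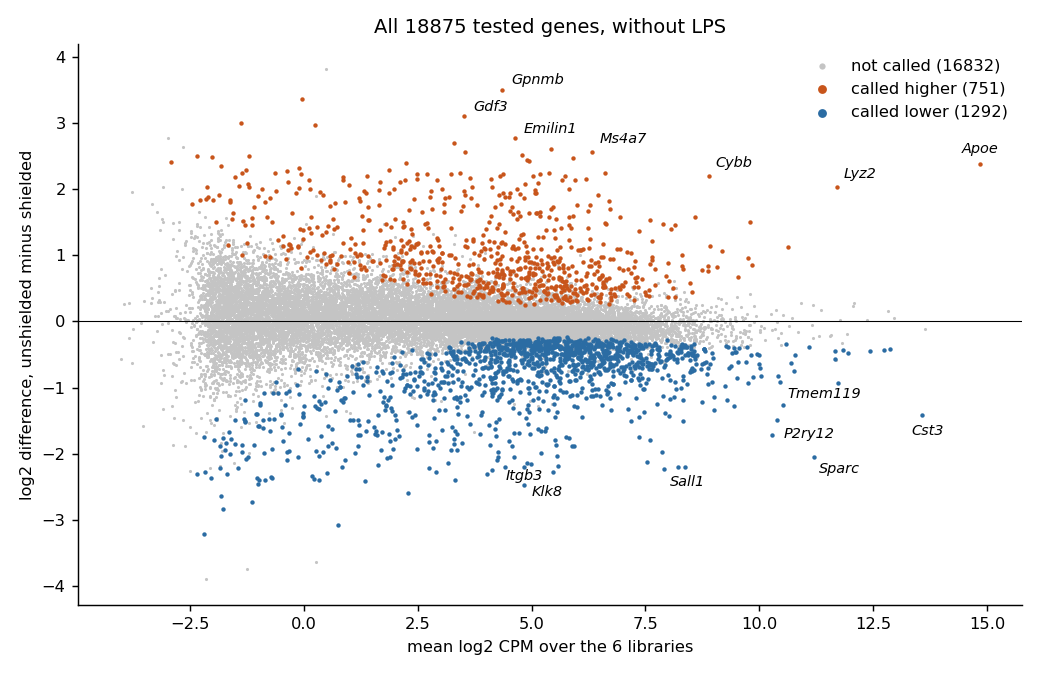
Log2 difference between unshielded and shielded libraries without LPS (y axis) against the mean log2 CPM over the 6 libraries (x axis) for 18875 tested genes, each a point, with the 751 called higher and the 1292 called lower in color. Apoe and Lyz2 are among the called genes with high counts that rose, and Cst3 and Sparc among those that fell.

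Among the genes that rose the most were receptors, secreted factors and enzymes of macrophages. Gpnmb, a transmembrane glycoprotein induced in lipid-laden and phagocytic macrophages, stood at 8.69, 4.14 and 5.83 CPM in shielded libraries 1, 2 and 3 and at 93.4, 58.6 and 60.9 CPM in unshielded libraries 1, 2 and 3. All unshielded values were high and all shielded values low, an 11.3-fold rise (log2 difference 3.5, SE 0.26, adjusted p = 0.00011). Emilin1, an extracellular matrix glycoprotein, went from 13.4, 5.95 and 10.03 to 78.4, 53 and 70.2 CPM (log2 difference 2.77, SE 0.28, adjusted p = 0.000244). Dach1, a nuclear cofactor, went from 6.55, 3.52 and 4.46 to 30.2, 24.3 and 31.7 CPM (log2 difference 2.56, SE 0.20, adjusted p = 0.00011). The 20 genes with the largest change in each direction were chosen among those whose groups did not overlap, so their separation is no finding. Adjusted p-values of genes all come from edgeR.

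Apoe, the main lipid-carrying apolipoprotein of the brain, stood at 23553, 6511 and 11399 CPM in shielded and 87499, 57349 and 71876 CPM in unshielded libraries (log2 difference 2.39, SE 0.40, adjusted p = 0.00296). The 3 shielded values spread over a wider ratio than the 3 unshielded ones, with library 1 highest. Cxcr4, the receptor for the marrow retention chemokine Cxcl12, stood at 60.9, 33.4 and 44.9 and 304, 187 and 172 CPM (4.76-fold, adjusted p = 0.000572). Igf1, a growth factor made by macrophages, stood at 22, 11.6 and 13.3 and 86.2, 57.6 and 71.7 CPM (4.58-fold, adjusted p = 0.000326). Aoah, the enzyme that removes acyl chains from LPS, rose 4.74-fold (adjusted p = 0.000321), and Nlrc4, an inflammasome sensor adaptor, rose 4.72-fold from 6.47, 3.81 and 4.77 to 27.5, 20.8 and 22.9 CPM (adjusted p = 0.000191). Ms4a4a, a membrane protein of macrophages, rose 5.36-fold, Vnn3, a pantetheinase, 4.71-fold, and Adgb, androglobin, 4.59-fold. B3gnt8, a glycosyltransferase, and Cyp4f18, a fatty acid hydroxylase, rose 4.7-fold and 4.68-fold, but both share exon bases with a neighbouring gene. All 20 of the genes with the largest increase were called in every fit that left out 1 of the 6 libraries. Without the 2 conflicting libraries the log2 differences of these 20 ran from 1.38 to 3.03. The genes were chosen for groups that do not overlap, so leaving out libraries could hardly change their direction.

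The genes that fell the most were surface receptors, adhesion proteins and transcription factors of microglia, together with genes of other functions. Adora3, an adenosine receptor, stood at 41.6, 58.4 and 43.1 CPM in shielded and 6.8, 18 and 7.26 CPM in unshielded libraries (log2 difference -2.2, SE 0.33, adjusted p = 0.0015). Adgrg1, an adhesion G protein-coupled receptor, stood at 641, 906 and 689 and 103, 259 and 127 CPM (4.58-fold lower, adjusted p = 0.00181). In both genes unshielded library 2 was the highest of its group. Lag3, a checkpoint receptor, stood at 579, 791 and 599 and 100.2, 214 and 116 CPM (log2 difference -2.2, SE 0.27, adjusted p = 0.000519), and Pdcd1, the checkpoint receptor PD-1, at 46.5, 37 and 35.1 and 7.84, 14.1 and 7.06 CPM (4.14-fold lower, adjusted p = 0.00153). These checkpoint receptors are best known from T cells, whose markers were at or near 0 here. Slc2a5, a fructose transporter, was 4.35-fold lower and Sparc, a matrix-associated glycoprotein, 4.14-fold lower, from 4714, 5757 and 4504 to 809, 1909.7 and 898 CPM (adjusted p = 0.00195). Sall3, a relative of Sall1, was 4.57-fold lower (adjusted p = 0.00275). Mrc2, a collagen receptor, was 4.59-fold lower, Nav3, a protein of growing microtubules, 3.95-fold, and Sgce, a sarcoglycan, 4.11-fold. Of the 20 genes with the largest decrease, 19 were called in every fit that left out 1 library. The exception was Mlph, a melanosome transport protein, with an adjusted p of 0.0518 without shielded library 2 and 0.056 without unshielded library 3. With the conflicting pair left out, the log2 differences of the 20 ran from -2.36 to -1.75, with a direction again nearly fixed by the choice of genes. The 20 included Klk8, Liph and Ebf3.

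**Figure D2:**
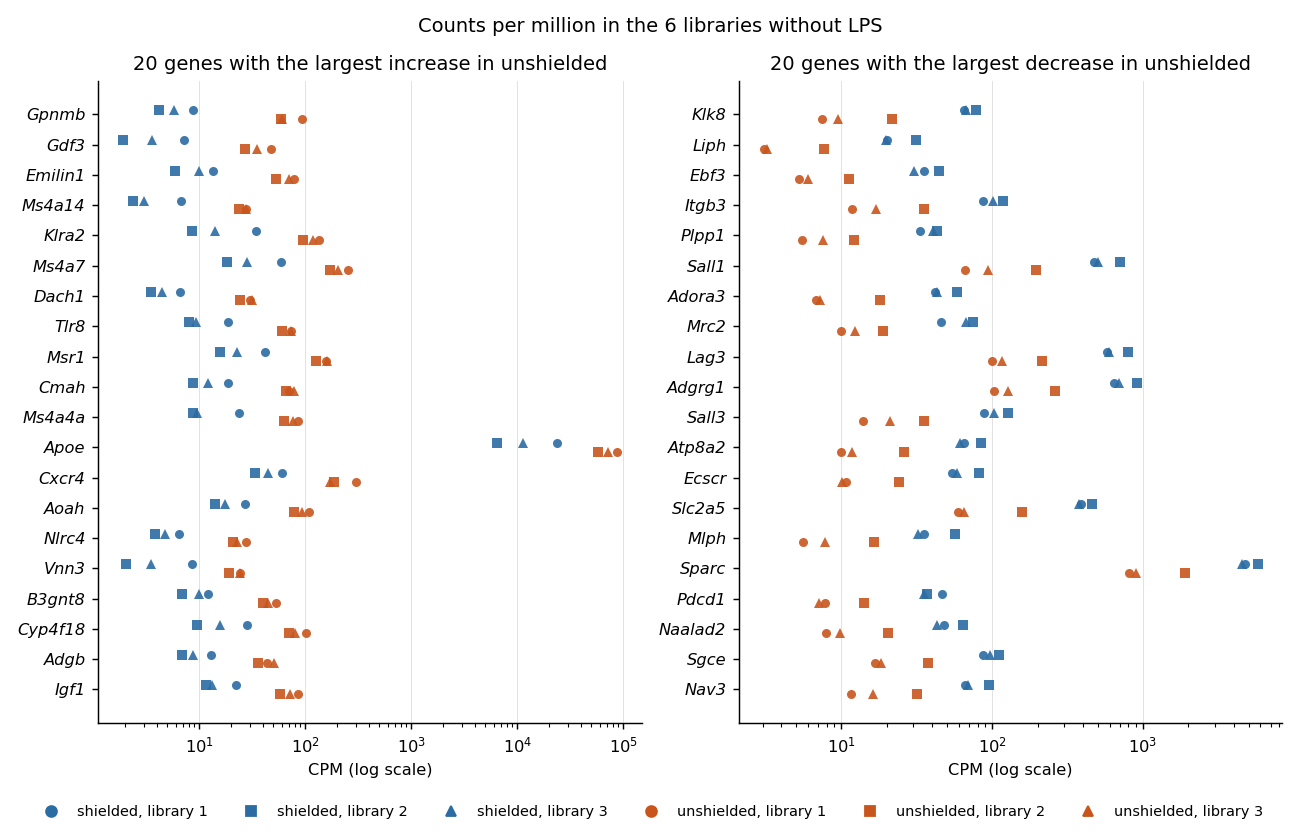
CPM (log scale) of the 20 genes with the largest increase (left) and the 20 with the largest decrease (right) in unshielded libraries, with 1 point a library. The order within a group is shared by most genes. On the left, shielded library 1 is highest and shielded library 2 lowest in 20 of 20 genes. On the right, unshielded library 2 is highest in 20 of 20 and unshielded library 1 lowest in 18. The lowest shielded value on the right varies, in library 1 for 12 genes and in library 3 for 8.

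The library nearest to the other group was often the same from one called gene to the next. Among the 20 largest increases, shielded library 1 was the highest of its group in 20 and unshielded library 2 the lowest of its group in 19. Among all 751 genes called higher, these shares were 72.7% and 71.8%, against 27.1% and 30.7% of all tested genes. Among the 1292 genes called lower, unshielded library 2 was the highest of its group in 72.4% and shielded library 3 the lowest in 61.8%. Over all tested genes these shares were 34.5% and 38.1%. Shielded library 2 was the farthest from the unshielded group in many genes. It was the highest of its group in 75.9% of genes called lower, against 35.1% of all tested genes. In genes called higher it was the lowest in 57.4%, against 34.4%. Shielded library 1 therefore sat nearest to the unshielded group in genes that rose, and unshielded library 2 nearest to the shielded group in both directions. The calls were made on the same values, so these shares describe the libraries and carry no test. Unshielded library 2 also had the lowest total count, and the part of depth in this order was not tested.

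**Figure D3:**
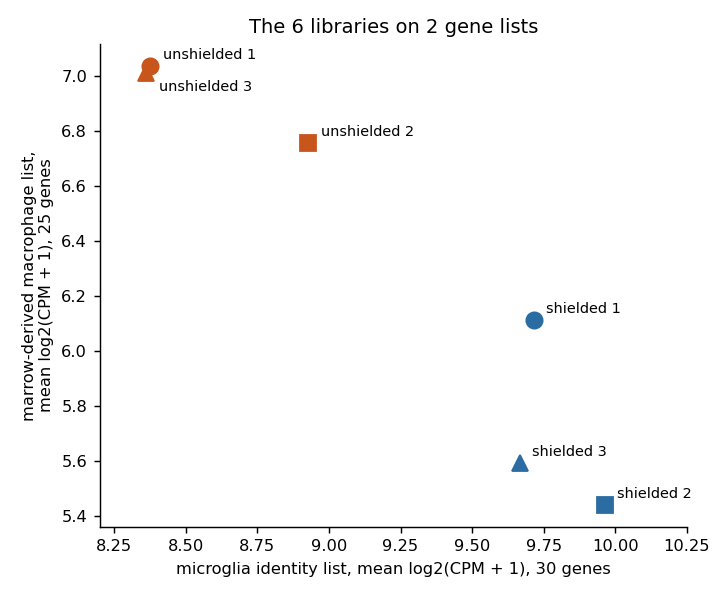
Mean log2(CPM + 1) of 25 marrow-derived macrophage genes (y axis) against that of 30 microglia genes (x axis) in the 6 libraries without LPS, with 1 point a library. The unshielded libraries lie at 8.36 to 8.93 on the microglia axis and the shielded ones at 9.67 to 9.96, with shielded library 1 the highest shielded library on the marrow-derived axis, at 6.11.

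The upstream sequence of 4 genes with large changes in either direction, and of Apoe and the microglial factor Sall1, is shown as an example. The 4 genes were chosen among those holding a match to the letters listed below, so their matches are no finding. Genes with larger changes were passed over, among them Gdf3 (log2 difference 3.10), which ranks above Emilin1 (2.77). Apoe and Sall1 were included whatever their matches. The 250 bases before each annotated start come from RefSeq on GRCm38.p6, not the build of the counts, and read 5′ to 3′ on the gene's strand. Capitals mark exact matches, on either strand, to GAGGAA (the core bound by ETS factors such as PU.1), CACGTG (MITF and TFE factors), TGACTCA (AP-1), TGTGGTT (RUNX), CTATTTA (MEF2) or TGCTGAC (MAF). Gpnmb (chr6:49036268-49036517, plus strand) holds a RUNX and a MEF2 match, Emilin1 (chr5:30913536-30913785, plus strand) and Apoe (chr7:19699189-19699438, minus strand) an ETS match, Klk8 (chr7:43797327-43797576, plus strand), a serine protease gene, an ETS match, and Adora3 (chr3:105904171-105904420, plus strand) an AP-1 and an ETS match, while Sall1 (chr8:89044163-89044412, minus strand) holds none of these letters in this window.
Gpnmb: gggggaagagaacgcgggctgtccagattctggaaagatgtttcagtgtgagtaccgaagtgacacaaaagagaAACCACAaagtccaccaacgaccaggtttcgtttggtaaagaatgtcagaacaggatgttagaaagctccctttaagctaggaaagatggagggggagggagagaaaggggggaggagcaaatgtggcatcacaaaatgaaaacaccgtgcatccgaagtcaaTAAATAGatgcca
Emilin1: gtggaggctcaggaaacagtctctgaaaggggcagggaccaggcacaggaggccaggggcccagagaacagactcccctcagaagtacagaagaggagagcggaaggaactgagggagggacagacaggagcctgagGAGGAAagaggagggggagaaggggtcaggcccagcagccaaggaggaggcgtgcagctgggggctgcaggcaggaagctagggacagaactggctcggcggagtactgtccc
Apoe: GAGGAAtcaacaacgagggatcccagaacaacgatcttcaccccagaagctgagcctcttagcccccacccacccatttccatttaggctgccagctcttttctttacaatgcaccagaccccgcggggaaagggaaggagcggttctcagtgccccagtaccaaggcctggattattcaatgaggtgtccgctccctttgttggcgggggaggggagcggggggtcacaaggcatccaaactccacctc
Klk8: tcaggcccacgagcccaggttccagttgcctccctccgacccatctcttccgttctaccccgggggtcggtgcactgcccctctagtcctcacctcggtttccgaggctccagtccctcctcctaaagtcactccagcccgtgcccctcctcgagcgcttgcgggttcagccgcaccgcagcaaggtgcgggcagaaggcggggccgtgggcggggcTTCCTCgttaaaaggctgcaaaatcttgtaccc
Adora3: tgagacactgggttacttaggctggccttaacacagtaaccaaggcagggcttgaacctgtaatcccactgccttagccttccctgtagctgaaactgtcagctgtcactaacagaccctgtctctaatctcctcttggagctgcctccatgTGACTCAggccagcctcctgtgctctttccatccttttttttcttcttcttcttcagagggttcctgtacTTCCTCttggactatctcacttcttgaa
Sall1: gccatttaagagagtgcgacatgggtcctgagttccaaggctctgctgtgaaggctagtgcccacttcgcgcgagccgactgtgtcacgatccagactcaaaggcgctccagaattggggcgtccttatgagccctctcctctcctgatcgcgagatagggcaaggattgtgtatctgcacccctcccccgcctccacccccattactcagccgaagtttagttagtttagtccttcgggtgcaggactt
Of the tested genes 12709 had such a promoter of 300 bases, 250 before and the rest after the start. GAGGAA was found in 31.7% of 564 promoters of genes called higher, 30.1% of 972 of genes called lower and 27.3% of all tested genes. TGTGGTT was found in 6.03%, 3.50% and 3.82%, and TGACTCA in 4.96%, 2.98% and 3.67%. CACGTG was found in 8.16%, 9.05% and 9.54%, CTATTTA in 2.30%, 2.88% and 2.09%, and TGCTGAC in 2.66%, 4.53% and 3.75%. None of these shares was tested, and a match is not a binding site.

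Genes of the microglia identity list fell. Of 30 tested members, 25 fell and 0 rose, a called share of 83.3% beside 10.8% of all tested genes. The median log2 difference was -1.14 against -0.00 over all tested genes. Without overlap of the groups 28 of 30 were lower, beside 19.4% of all tested genes (33.6% in either direction). Homeostatic receptors fell to different depths. P2ry12, the purine receptor that guides microglial processes, stood at 2115, 2718 and 2009 CPM in shielded and 711, 1072 and 649.9 CPM in unshielded libraries (log2 difference -1.49, SE 0.19, adjusted p = 0.000393). Tmem119, a membrane protein specific to microglia in the brain, stood at 1855, 2104 and 1864 and 1017, 1157 and 929 CPM (1.88-fold lower, adjusted p = 0.000481), and P2ry13, a related purine receptor, fell 1.91-fold. The groups were separate for all 3 genes, with the highest unshielded value again in library 2. Selplg, the P-selectin ligand, was 3.29-fold lower (adjusted p = 0.000354) and Siglech, a sialic acid-binding lectin, 2.28-fold lower (adjusted p = 0.000325). The secreted members fell as well: Cst3, the protease inhibitor cystatin C, from 19586, 21772 and 18559.8 to 7177, 9084 and 6310.1 CPM (log2 difference -1.41, SE 0.14, adjusted p = 0.000191), and Olfml3, a matrix protein, from 2234, 2404 and 2215 to 898, 1122 and 844 CPM (2.39-fold, adjusted p = 0.000191). Csf1r, the receptor that PLX5622 inhibits, fell little, by 0.43 (SE 0.12, adjusted p = 0.0372), and was not called without shielded library 1 or 2 or without any 1 of the 3 unshielded libraries (largest adjusted p 0.183). Gpr34, a lysophospholipid receptor, fell by 0.98 but was not called without shielded library 2 or unshielded library 1 or 3 (largest adjusted p 0.0666). The 5 members that were not called were Cx3cr1, the fractalkine receptor (-0.58, adjusted p = 0.0605), Fcrls (0.27), Tgfbr1 (-0.24), Mef2c (-0.13) and Upk1b (-1.66). In the fit without the conflicting pair, 12 members were called lower, and without shielded library 1 and unshielded library 3, 18.

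Transcription factors of macrophages moved in both directions, 6 of 44 up and 6 down, with a median of -0.12. The called share was 27.3%, beside 10.8% of all tested genes. Beside Sall1 and Sall3, Ebf3 (-2.31), a helix-loop-helix factor, Tal1 (-0.89), a factor of early blood formation, Ikzf1 (-0.56), and Hhex (-0.71) fell. Sall1 stood at 471, 701 and 499.9 CPM in shielded and 66, 196 and 93.8 CPM in unshielded libraries, where library 2 held the highest value. Runx3, a Runt factor, rose from 16.7, 8.08 and 11.4 to 48.1, 34.5 and 56.8 CPM (log2 difference 1.94, SE 0.30, adjusted p = 0.00169), and Runx2 rose by 1.19, while Runx1 was not called (-0.08). Spic, a PU.1 relative needed by red pulp macrophages of the spleen, rose 4.31-fold from 2.28, 1.23 and 1.1 to 8.12, 5.39 and 6.48 CPM (adjusted p = 0.00384). Tfec, of the MITF and TFE family, rose by 1.43, and Bhlhe40 by 0.71. Among factors shared by macrophages, Spi1, which encodes PU.1 (-0.34, adjusted p = 0.116), Irf8 (-0.11) and Cebpa (-0.33) were not called. Runx2 and Hhex were not called without shielded library 2 or unshielded library 1 or 3, with largest adjusted p-values of 0.0736 and 0.0661. When the conflicting pair was omitted, 1 member was called in each direction.

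Genes of the marrow-derived brain macrophage list rose, 17 of 25, with a median of 1.5. In either direction 76% were called, beside 10.8% of all tested genes. The list rests on the literature as generally known, possibly including a study of these mice, so its direction is not independent evidence. Lyz2, the lysozyme of myeloid cells, stood at 2564, 1122 and 1447 CPM in shielded and 8286, 5688 and 6946 CPM in unshielded libraries (log2 difference 2.03, SE 0.27, adjusted p = 0.000691). Cybb, the catalytic subunit of the phagocyte NADPH oxidase, stood at 367, 137 and 192 and 1202, 908 and 1071 CPM (4.57-fold, adjusted p = 0.0018). Axl, a receptor tyrosine kinase for dying cells, stood at 711, 409 and 481 and 1692, 1292 and 1558 CPM (2.84-fold, adjusted p = 0.000392). In all 3 genes shielded library 1 was the highest shielded value and still lay below every unshielded one. Clec12a, an inhibitory lectin, rose 4.41-fold, Cp, the ferroxidase ceruloplasmin, 3.23-fold, and Gpr65, a proton-sensing receptor, 3.75-fold. Members that fell were Pilra (-0.92, adjusted p = 0.00893) and Clec4a3 (-0.63, adjusted p = 0.00281), both inhibitory receptors. Members not called included Ifitm3 (0.26), Crip1 (0.04), Dpep2 (0.36), Clec4a1 (0.33) and Jaml (1.9, adjusted p = 0.198). Without the 2 conflicting libraries 9 members were called higher and 0 lower, at a median of 1.09, and without shielded library 1 and unshielded library 3, 15 were higher.

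Of 11 tested markers of circulating monocytes 1 was called, Itga4, the integrin alpha 4 chain (2.2, adjusted p = 0.000782), and the list's median was -0.46. The called share of 9.09% was near the 10.8% of all tested genes. Ly6c2, the defining marker of classical monocytes, stood at 3.23, 2.17 and 2.45 CPM in shielded and 0.547, 1.69 and 1.84 CPM in unshielded libraries (log2 difference -1.0, adjusted p = 0.166), and Ccr2, their homing receptor, at 17.4, 19.8 and 17.4 and 12.3, 15.6 and 14.9 CPM (-0.36, adjusted p = 0.375). The summed level of the 12 monocyte markers ran from 123 to 155 CPM in shielded and 211 to 246 CPM in unshielded libraries. Without Itga4 it ran from 103 to 125 and from 86.3 to 123 CPM, ranges that overlapped. Neutrophil markers stood lower: 3 of 14 fell (21.4%, beside 6.85% of all tested genes), Ly6g (-1.81), Retnlg (-1.12) and Csf3r (-0.70), at a list median of -1.0. The summed level of the 14 ran from 624 to 887 CPM in shielded and 338 to 491 CPM in unshielded libraries. No neutrophil marker was called without unshielded library 1 or without the 2 conflicting libraries. The part of these cells in the other lists was not tested.

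The Ms4a family, small membrane proteins clustered in the genome, rose with the same sign in 7 of 11 tested members, with a median of 1.65 and 0 called lower. That share of 63.6% stood beside 10.8% of all tested genes. Ms4a6c stood at 60.8, 32.1 and 36.5 CPM in shielded and 167, 124 and 149 CPM in unshielded libraries (3.39-fold, adjusted p = 0.000299), and Ms4a6b at 98, 71.6 and 71.9 and 190.0, 157 and 171 CPM (2.14-fold, adjusted p = 0.000283). Ms4a6d, a near copy by name, was not called (0.26, adjusted p = 0.31). Reads can match more than 1 member of this family, so single members are uncertain. With the conflicting pair left out, 3 members were called.

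Receptors that mark macrophages at the brain's borders rose in part, 6 of 14 (42.9%, beside 10.8% of all tested genes called), with a median of 0.46. Mrc1, the mannose receptor, stood at 255, 225 and 195 CPM in shielded and 746, 619 and 640.3 CPM in unshielded libraries (log2 difference 1.57, SE 0.17, adjusted p = 0.000229), with the 3 shielded values close together. Siglec1, a sialoadhesin of macrophages, rose 3.17-fold (adjusted p = 0.00428), Stab1, a scavenger receptor, 2.18-fold (adjusted p = 0.000399), and Dab2, an endocytic adaptor, 2.59-fold (adjusted p = 0.000228). Pf4, a chemokine of platelets and border macrophages, rose 3.12-fold (adjusted p = 0.000201). Cd163, the hemoglobin scavenger receptor, rose by 0.87 (adjusted p = 0.0428), but was not called when any 1 of the 6 libraries was left out (largest adjusted p 0.15). Lyve1 (0.23), Folr2 (0.06), Cbr2 (0.09) and Clec10a (-0.05), other markers of border macrophages, were not called, so the list did not move as a whole. Scavenger receptors and lectins rose in 11 of 21 members, with a median of 0.87. In either direction 57.1% were called, beside 10.8% of all tested genes. Cd36, a fatty acid and lipoprotein receptor, stood at 53.4, 24.4 and 29.7 CPM in shielded and 122, 92 and 111 CPM in unshielded libraries (3.02-fold, adjusted p = 0.00192). Clec4n, the lectin Dectin-2, stood at 7.15, 6.24 and 5.89 and 28.9, 23.6 and 26.3 CPM (4.09-fold, adjusted p = 0.000191), and Clec4d, a related lectin, rose 4.9-fold from values of at most 2.13 CPM. Scarb1, a receptor for high-density lipoprotein, was the member that fell (-0.50, adjusted p = 0.00921), a call lost without shielded library 2 or unshielded library 1 (largest adjusted p 0.0524). In the fit without the conflicting pair, 4 border and 6 scavenger members were called higher.

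Lipid transport and storage genes rose more often than they fell, 12 of 27 up and 2 down, with a median of 0.61. The called share was 51.9%, beside 10.8% of all tested genes. Among apolipoproteins Apoc1 (1.44, adjusted p = 0.00852) rose with Apoe from values of at most 1.10 CPM. Among transporters Abca1, the cholesterol exporter, rose by 0.82 and its relative Abcg1 was not called (0.15). Plin2, the coat of lipid droplets, stood at 41.2, 29.5 and 33.8 CPM in shielded and 78.1, 58.6 and 59.8 CPM in unshielded libraries (1.88-fold, adjusted p = 0.00423). Soat1, which esterifies cholesterol for storage, rose by 0.65 (adjusted p = 0.00875), Cyp27a1, which makes an oxysterol, by 0.93 (adjusted p = 0.000837), and Fabp5, a fatty acid carrier, by 1.07 (adjusted p = 0.00202). Lpcat3, which puts polyunsaturated chains into phospholipids, fell from 120.4, 141 and 118 to 54.5, 70.1 and 52.3 CPM (log2 difference -1.11, SE 0.12, adjusted p = 0.000191), and Mylip, which degrades lipoprotein receptors, fell by 0.53. Lpcat3, Mylip, Abca1 and Apoe are all known targets of the liver X receptors, whose genes Nr1h3 (0.61, adjusted p = 0.253) and Nr1h2 (0.03) were not called. Abca1 was not called without shielded library 2 or 3 or unshielded library 1 or 3, and Mylip only without shielded library 3 stayed called. Of 18 cholesterol synthesis genes 0 rose and 2 fell, Hmgcs1 (-0.30) and Sc5d (-0.28), a share of 11.1% beside 10.8% of all tested genes. Sc5d was lost when any 1 library was left out, and Hmgcs1 stayed called only without unshielded library 2. When the conflicting pair was omitted, 2 lipid genes were called higher and 1 lower.

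Lysosomal genes did not move one way: 5 of 35 rose and 6 fell, at a median of -0.08 and a called share of 31.4%. The proteases split. Ctsl, cathepsin L, fell from 809.8, 890.2 and 786 to 306, 402 and 276 CPM (log2 difference -1.34, SE 0.13, adjusted p = 0.000191), Ctsf, cathepsin F, by 1.15 (adjusted p = 0.000191), and Lgmn, legumain, by 0.57 (adjusted p = 0.00217), whereas Ctsb (0.28) and Ctsd (-0.12) were not called. Galc, which breaks down a myelin galactolipid, rose from 123, 89.6 and 94.7 to 240.3, 191 and 198 CPM (2.05-fold, adjusted p = 0.000393). Atp6v0d2, a proton pump subunit restricted to osteoclasts and some macrophages, rose 4.86-fold from at most 0.388 CPM, and its ubiquitous counterpart Atp6v0d1 was not called (-0.08). The disease-associated microglia list, built from genes that microglia induce around plaques, also held both directions, with 11 of 23 up and 4 down. Its called share was 65.2%, beside 10.8% of all tested genes. Beside Gpnmb, Apoe, Igf1 and Axl, Spp1, osteopontin, rose from 21.6, 14.4 and 16.3 to 72.1, 46.3 and 89.6 CPM (3.98-fold, adjusted p = 0.000229) and Lgals3, galectin-3, 2.65-fold (adjusted p = 0.000756). Cd9, a tetraspanin of the same list, fell from 469.9, 512 and 474 to 198, 245 and 196 CPM (2.28-fold, adjusted p = 0.000191), and Csf1, a ligand of the CSF1 receptor, fell 2.38-fold (adjusted p = 0.000844). Trem2, the lipid-sensing receptor upstream of this program in microglia, fell by 0.34 but was not called without shielded library 1, 2 or 3 or unshielded library 2 or 3 (largest adjusted p 0.138). Cst7 (-0.30), Itgax (-0.27) and Lpl (-0.07), also of the list, were not called. Without the 2 conflicting libraries 5 members were called higher and 3 lower.

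Antigen presentation to helper T cells rose in its classical genes and fell in the H2-O chains, which regulate peptide loading. Of 10 class II genes 6 rose and 2 fell, with a median of 0.65 and a called share of 80% beside 10.8% of all tested genes. H2-Ab1 stood at 347, 339 and 369.8 CPM in shielded and 743, 555 and 585 CPM in unshielded libraries (1.78-fold, adjusted p = 0.0143), and H2-Aa (0.84), H2-Eb1 (0.78), the invariant chain Cd74 (0.97) and the class II transactivator Ciita (0.61) rose too. H2-Oa, a chain of the molecule that restrains peptide exchange, fell from 16.7, 20.6 and 17.9 to 5.38, 7.13 and 4.64 CPM (log2 difference -1.7, SE 0.19, adjusted p = 0.000244), and its partner H2-Ob fell by 0.58 (adjusted p = 0.00179). The rises of H2-Aa, H2-Ab1, H2-Eb1, Cd74 and Ciita depended on single libraries. In place of 6, 1 class II gene, H2-DMb2 (0.69, adjusted p = 0.00387), was called higher without shielded library 1, shielded library 2 or unshielded library 1, and 4 without shielded library 3 or unshielded library 3. With the conflicting pair left out, 0 were called higher by edgeR and 1, H2-Oa, lower. Of 17 class I genes 1 was called, a share of 5.88% beside 10.8% of all tested genes. It was the regulator Nlrc5 (0.80), which was lost without shielded library 2 or 3 or unshielded library 1 or 3. H2-K1 (0.23) and B2m (-0.26) were not called.

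Innate sensing genes differed member by member. Of 17 genes of Toll-like receptors and their partners, 1 rose, Tlr8, a sensor of single-stranded RNA, and 5 fell. Together 35.3% were called, beside 10.8% of all tested genes. Tlr3, a sensor of double-stranded RNA, stood at 70.5, 81.7 and 59.97 CPM in shielded and 28.8, 36.9 and 29.4 CPM in unshielded libraries (log2 difference -1.16, SE 0.13, adjusted p = 0.000244). Tlr5, the flagellin receptor, fell by 0.91 (adjusted p = 0.0014), Cd180, a receptor that restrains Tlr4, by 1.02 (adjusted p = 0.00735), and its partner Ly86 by 0.47 (adjusted p = 0.0039). Tlr4, the LPS receptor, was not called (-0.03, adjusted p = 0.923), nor were its partners Cd14 (0.24) and Ly96 (0.32). Complement genes fell in 6 of 16 members and rose in 1, a called share of 43.75% beside 10.8% of all tested genes. C1qc, a chain of C1q, which starts the classical pathway, stood at 4767, 4669 and 4478 CPM in shielded and 3516, 3448 and 3029.6 CPM in unshielded libraries and fell by 0.48 (adjusted p = 0.00798). C1qa (-0.44) and C1qb (-0.42), the other chains of C1q, fell to a like extent, but C1qa was lost without shielded library 1 or unshielded library 3 and C1qb also without shielded library 2 or unshielded library 2. Itgam, which encodes the CD11b chain used in the sort and is part of complement receptor 3, fell from 493, 547 and 388 to 229, 293 and 221 CPM (1.92-fold, adjusted p = 0.00132), and its partner chain Itgb2 fell by 0.68 (adjusted p = 0.00146). C3ar1, the receptor for C3a, rose by 0.50, a call lost without shielded library 3 or unshielded library 1 (largest adjusted p 0.0741). In the fit without the conflicting pair, 1 Toll-like and 2 complement members were called, all lower. Interferon response genes rose in 6 of 31 members with a median of 0.36, a called share of 19.4% beside 10.8% of all tested genes. Bst2, tetherin, stood at 187, 115 and 132 CPM in shielded and 469, 347 and 382 CPM in unshielded libraries (2.76-fold, adjusted p = 0.000486), while Isg15 (-0.28) and Ifit3 (-0.27) were not called. The interferon count moved with single libraries, at 14 without shielded library 1 and 3 without shielded library 2 or 3 or unshielded library 3, and 1 without the 2 conflicting libraries.

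Secreted signals and their receptors also divided. Of 31 cytokines and chemokines 3 rose and 4 fell, a called share of 22.6% beside 10.8% of all tested genes. Gdf3, a TGF-beta family ligand, stood at 7.15, 1.91 and 3.57 CPM in shielded and 47.5, 27.1 and 35 CPM in unshielded libraries. Cxcl14 rose 3.66-fold (adjusted p = 0.00707) and Cxcl16 2.06-fold (adjusted p = 0.00733). Ccl9 fell from 83.7, 96.5 and 77.7 to 18.6, 34.2 and 22 CPM (log2 difference -1.8, SE 0.19, adjusted p = 0.000229), Ccl6, a neighbouring chemokine gene, 2.03-fold (adjusted p = 0.000824), and Il6 3.18-fold from 5.8, 6.69 and 5.07 to 1.09, 2.84 and 1.82 CPM (adjusted p = 0.00292). The inflammatory cytokines Il1b (0.48) and Tnf (-0.75) were not called. Among 14 chemokine receptors Cxcr4, Ccr1 (1.48, adjusted p = 0.00142) and Cxcr3 (1.47) rose, and Ccr6 (-1.42) was among those that fell. Their called share was 35.7%, beside 10.8% of all tested genes. Cxcr3 was called in 1 of the 6 fits that left out a library, the one without shielded library 1, and Ccr6 was lost without unshielded library 3. Among colony-stimulating factors, Flt3, a receptor of early progenitors and dendritic cells, rose from 3.04, 3.01 and 3.44 to 8.76, 7.22 and 5.68 CPM (2.28-fold, adjusted p = 0.0025). TGF-beta signalling, which maintains microglial identity, had 3 of 31 members up and 5 down, a called share of 25.8% beside 10.8% of all tested genes. Smad3, which carries the signal to the nucleus, fell by 0.66 (adjusted p = 0.00435), and the BMP receptor Bmpr1a fell from 33.7, 38.7 and 31.1 to 7.84, 15.1 and 8.73 CPM (3.31-fold, adjusted p = 0.000508). Pmepa1, an inhibitor of the pathway, and Ltbp3, which stores the ligand in matrix, rose by 1.07 and 1.28, and the ligand Tgfb1 (-0.39) and receptors Tgfbr1 (-0.24) and Tgfbr2 (-0.05) were not called. When the conflicting pair was omitted, 0 of these cytokine, chemokine receptor and TGF-beta members were called higher.

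Adhesion and uptake genes showed exchanges within families. Of 21 integrin chains 3 rose and 6 fell, a called share of 42.9% beside 10.8% of all tested genes. Itgal, the alpha L chain of LFA-1, rose from 56.2, 23.5 and 28.7 to 174, 129.6 and 179 CPM (4.45-fold, adjusted p = 0.00322) and Itga4 from 37.9, 18.5 and 19.8 to 125, 103 and 122 CPM (4.58-fold), while Itgam, Itgb2 and Itgb3 fell. Itgb3, the beta 3 chain, stood at 87.3, 119 and 101 CPM in shielded and 11.8, 35.3 and 17 CPM in unshielded libraries. Its partner chains Itgav (-0.31) and Itga2b (0.22) were not called, and of 11 platelet genes 1 rose and 3 fell (36.4% called). Among receptors for dying cells, Axl rose while Mertk, of the same kinase family, fell by 0.72 (adjusted p = 0.00322), and their bridging ligands were divided, with Pros1 falling from 412, 460.0 and 375 to 174, 226 and 167 CPM (2.2-fold, adjusted p = 0.000191) and Gas6 not called (0.10). Matrix and proteolysis genes rose in 6 of 32 and fell in 5, a called share of 34.4%. Mmp14, a membrane-bound metalloprotease, rose from 89.2, 58.8 and 68 to 249, 174 and 225 CPM (2.999-fold, adjusted p = 0.00105), and Mmp12, the macrophage elastase, rose 2.69-fold (adjusted p = 0.000636). Serpine2, a protease inhibitor, fell from 276, 370.1 and 273 to 80.04, 126 and 67.4 CPM (3.37-fold, adjusted p = 0.000472), and Adamts1, another metalloprotease, fell 3.14-fold (adjusted p = 0.00242). Without the 2 conflicting libraries 1 integrin chain was called in each direction, and 1 matrix gene was called higher and 3 lower.

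Called shares in the lists of cell cycle, p53 and glycolysis genes were 8%, 14.3% and 4.76%, beside 10.8% of all tested genes. Of 25 cell cycle genes 2 rose, Mcm2 (0.37) and Mcm6 (0.40), both subunits of the replication helicase. Mcm2 was lost when any 1 library was left out and Mcm6 without shielded library 2 or 3 or unshielded library 1 or 3. Mki67, the proliferation marker, was not called (0.54, adjusted p = 0.142). Among 21 targets of p53 and DNA damage genes, Cdkn2a, the senescence-linked inhibitor locus, fell from 19, 19.3 and 18.2 to 4.63, 7.13 and 4.12 CPM (log2 difference -1.85, SE 0.22, adjusted p = 0.000322), Sesn1 rose by 0.65 (adjusted p = 0.00346) and Cdkn1a, the classical p53 target, was not called (-0.06, adjusted p = 0.889). Of 21 glycolysis genes 1 was called, Gpi1 (0.36), and it was lost when any 1 library was left out. Of 16 immediate-early genes, which rise when cells are dissociated, 0 were called by edgeR at a median of -0.14 (Fosb, Egr1 and Egr3 had an unadjusted p under 0.05, and DESeq2 called Egr3).

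**Figure D4:**
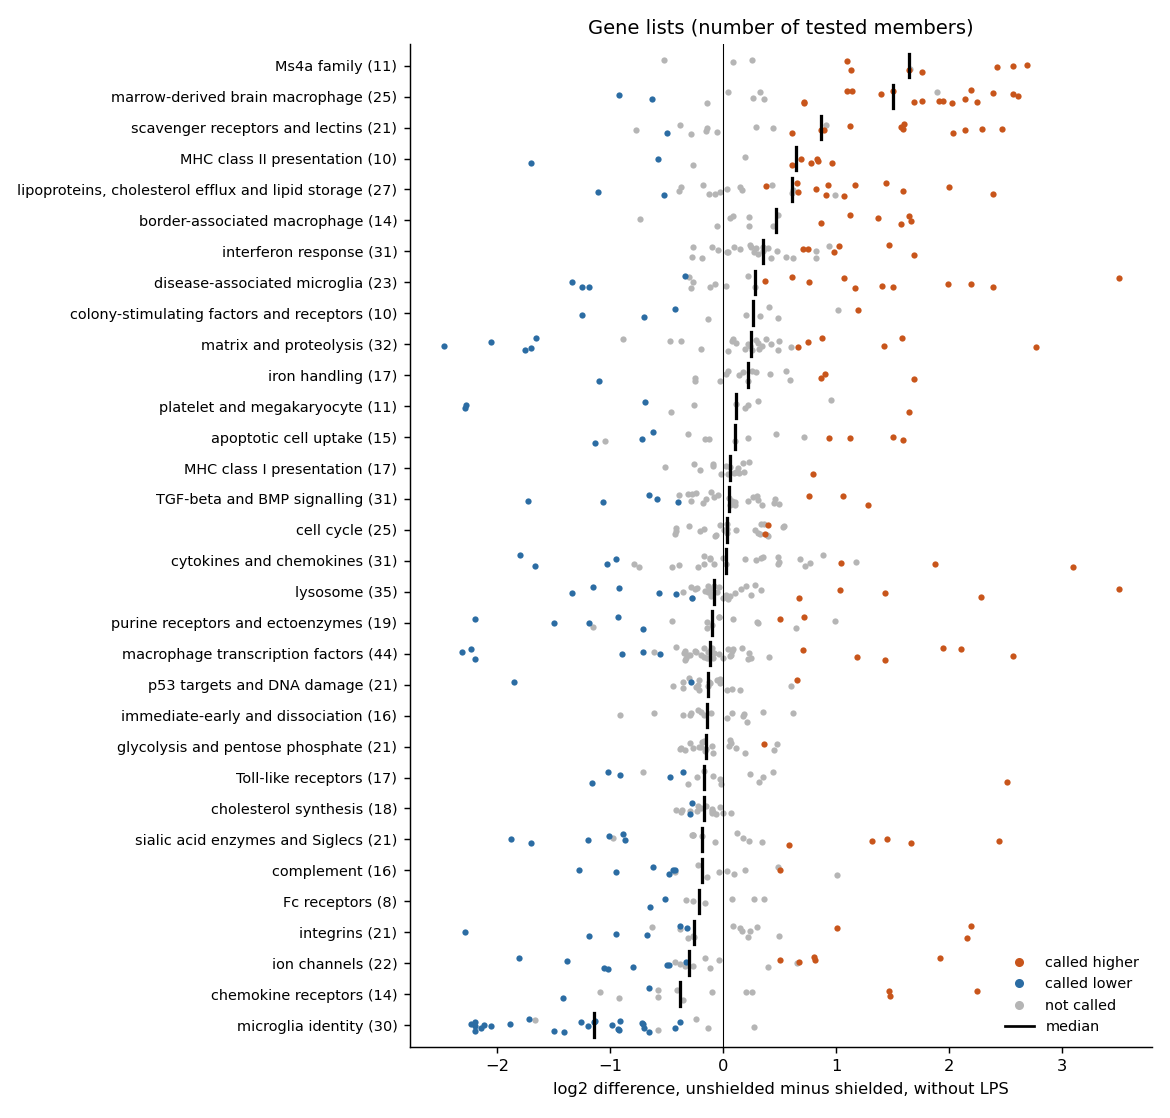
Log2 difference without LPS, unshielded minus shielded (x axis), of each tested member of 32 gene lists (rows, with the number of tested members), colored by call, with a bar at the list's median. The Ms4a family and the marrow-derived macrophage genes have the highest medians, 1.65 and 1.5, and the microglia genes the lowest, -1.14.

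Beside genes already described, such as Gpnmb and Dach1, the genes with the smallest p-values included some with moderate changes. Kank2, a regulator of cell adhesions, stood at 26.4, 24.3 and 23 CPM in shielded and 60.9, 51.8 and 65.4 CPM in unshielded libraries, a 2.42-fold rise with little spread (SE 0.10, adjusted p = 0.00011). Jag1, a Notch ligand, stood at 13.3, 14.8 and 12.1 and 36.2, 29.8 and 36.5 CPM (2.55-fold, adjusted p = 0.000191). Adam19, a membrane protease, rose 3.92-fold, Dse, which converts chondroitin to dermatan sulfate, 2.38-fold, Xdh, xanthine dehydrogenase, 2.6-fold, and S1pr2, a receptor for sphingosine phosphate, 3.02-fold. Plcl1, a phospholipase C-like protein, fell from 43.9, 53.3 and 45.4 to 12.5, 19 and 13.4 CPM (3.2-fold, adjusted p = 0.000191), and Rnf128, a ubiquitin ligase, from 35.7, 38.7 and 39.4 to 14.7, 16.9 and 14.6 CPM (2.46-fold, adjusted p = 0.000191). Abhd17c, a depalmitoylating enzyme, fell 2.23-fold, Lrba, a vesicle trafficking protein, 2.72-fold, and Plxdc2, a plexin domain receptor, 2.32-fold. Each of these 11 genes was called in all 6 fits that left out a library. They were chosen for small p-values on these same libraries, so staying called is no finding.

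The 6 libraries from LPS-treated mice gave the same comparison in samples that these calls had not used, although all 12 libraries shared 1 estimate of the spread. Their neuron and oligodendrocyte markers were less even, with a mean log2 CPM of 2.48, 3.53 and 4.53 in shielded and 4.83, 4.11 and 4.87 in unshielded libraries. With this level as a covariate 5922 genes were called after LPS, against 8423 without it. The part of other cells in the differences after LPS was not tested. After LPS, 44.6% of tested genes were called, 19.1% higher and 25.6% lower. Of the 751 genes called higher without LPS, 583 (77.6%) were called higher again, 27 were called lower and 677 had the same sign. Of the 1292 called lower, 976 (75.5%) were called lower again, 21 were called higher and 1177 had the same sign. The shared genes made up 16.2% of the genes called higher after LPS and 20.2% of those called lower. In the microglia list 22 of the 25 genes that fell were called lower again, and in the marrow-derived list 17 of 19 kept their call. The median difference of the genes that rose was 0.91 without and 1.11 after LPS, and of those that fell -0.63 and -0.66. Across all 18875 genes the differences without and after LPS had a Pearson r of 0.545 and a Spearman rho of 0.506, a description across genes, which are not independent replicates.

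**Figure D5:**
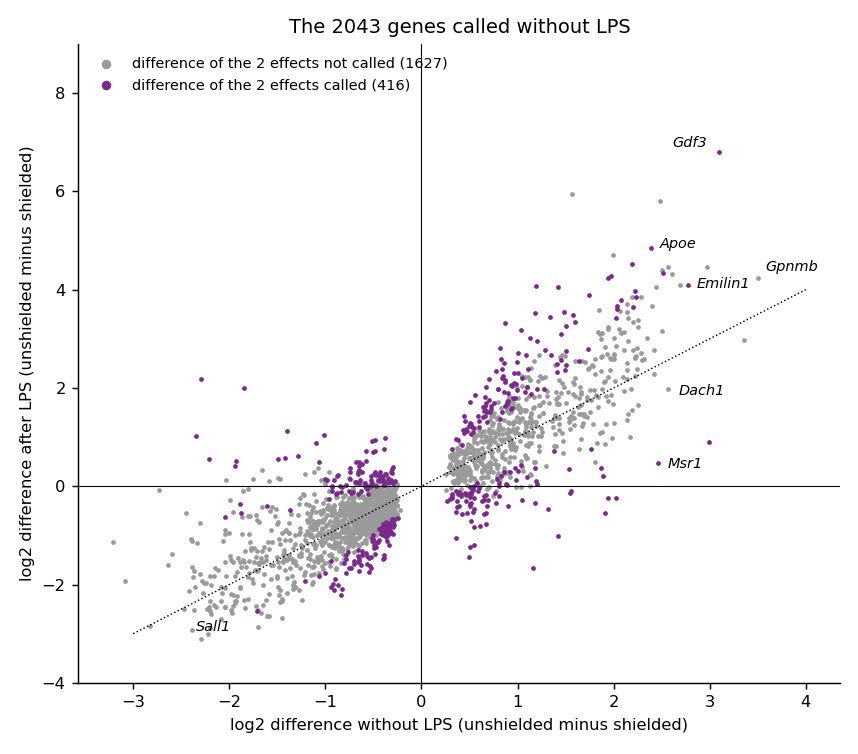
Log2 difference after LPS (y axis) against that without LPS (x axis), both unshielded minus shielded, for the 2043 genes called without LPS, each a point, with the dotted line marking equal values. The 416 genes whose difference of effects was called are in purple, among them Gdf3 and Apoe above the line and Msr1 below it.

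The difference between the effect without and after LPS was called for 2512 of 18875 genes (13.3%), more positive without LPS for 9.25% and more negative for 4.06%, and for 416 of the 2043. With the neuron and oligodendrocyte level as a covariate, it was called for 1911 genes. With the conflicting pair left out, it was called for 164, and with them moved to the LPS group edgeR called 0, with 457 at an unadjusted p under 0.05. Msr1, a scavenger receptor, stood at 41.4, 15.7 and 22.8 CPM in shielded and 158, 125 and 159 CPM in unshielded libraries without LPS, but at 494, 369 and 376 and 488, 678 and 566 CPM after it, so its shield difference of 2.46 was 0.48 after LPS (difference of effects 1.98, SE 0.40, adjusted p = 0.01). Gpr65 changed sign, with 293, 306 and 262 CPM in shielded and 186, 207 and 194 CPM in unshielded libraries after LPS. Its shield difference was 1.91 without and -0.55 after LPS (difference of effects 2.46, adjusted p = 0.00135), and the difference after LPS was not called. C3ar1 was called in opposite directions, at 0.50 without and -1.43 after LPS (difference of effects 1.93, adjusted p = 0.000464), and so were Ch25h, which makes 25-hydroxycholesterol (1.16 and -1.67, adjusted p of the difference = 0.00283), Clec7a, the lectin Dectin-1 (0.61 and -0.81, adjusted p = 0.00328), Ctsc, cathepsin C (0.67 and -0.77, adjusted p = 0.00306), and Ripor2 (0.54 and -1.2, adjusted p = 0.000464). The calls without LPS of these genes depended on single libraries. Clec7a stayed called only without shielded library 1, Ch25h only without shielded library 1 or unshielded library 2, and Ctsc was lost without shielded library 2 or 3 or unshielded library 1. Ripor2 was lost without shielded library 2. Larger after LPS were Apoe (2.39 without and 4.84 after), Mrc1 (1.57 and 3.48, adjusted p of the difference = 0.00129), H2-Ab1 (0.83 and 2.2, adjusted p = 0.00802), Runx3 (1.94 and 4.24, adjusted p = 0.00586) and Flt3 (1.19 and 4.07, adjusted p = 0.000725). The genes with the smallest p for this difference that were not called without LPS were Tfrc, the transferrin receptor (-0.25 without and -2.79 after LPS), St6gal1, a sialyltransferase (0.23 and 2.64), and Farsb, a tRNA synthetase subunit (0.21 and -1.14). Among microglia genes the difference of effects was called for 2 of the 25 that fell: Gpr34 (0.12 after LPS) and Mertk (-0.12), neither of which was called after LPS.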

How the data were processed

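Total RNA of CD11b-sorted brain cells from 12 mouse samples was sequenced after linear RNA amplification, per the labels' protocols. Amplification can widen the spread of genes with few molecules. The authors deposited raw counts per gene in 1 table, made with FastQC, STAR and HTSeq on mm9 per the submitters' processing notes. For tool versions, gene annotation and strand setting, the sources used here give nothing. Library totals of the 6 samples compared ran from 18090977 to 42931839 counts, and all of their 36491 genes were read, with 0 sample columns unused. Genes with too few counts were removed with filterByExpr (edgeR 4.0.16 in R 4.3.3, minimum count 10, minimum total 15), which left 18875. One model with 4 group means over the 12 libraries (TMM scaling, robust quasi-likelihood) was fitted, and each contrast was tested two-sided with Benjamini-Hochberg adjustment over all tested genes at 0.05. Log2 CPM values carry a prior count of 2, whereas log2 differences come from the fit at edgeR's default prior count. SE is the size of the log2 difference divided by the square root of F. CPM uses TMM library sizes. The model was tested beforehand on simulated counts with 200 changed genes. It recovered 52% of the 2-fold and 79% of the 4-fold changes, with 7 false calls.

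Groups came from sample titles. The genes named were the 20 with the largest change in each direction (mean log2 CPM of at least 3, groups not overlapping, named symbols), the 10 with the smallest p in each direction, members of fixed lists, and the 5 with the smallest p for the difference of the shield effects. The members and lists were chosen with earlier results of these data known. Lists were described by counts and medians without a test, and a few of their members are counted there but not reported here by name. Gene names came from a table of identifiers, in which 254 had no symbol and 12 shared one. Promoters were matched by symbol for 12709 tested genes (67.3%), and the first listed promoter of a symbol was used. Genes of near-identical families (Ms4a, H2, Ifi, Klra2) are uncertain. So are genes whose exons overlap those of another gene in GENCODE M21, on either strand, since strand use is not given. Among named genes called without LPS these were Adam19, Adora3, B3gnt8, Bhlhe40, Bmpr1a, Cd180, Cd74, Cd9, Ch25h, Ciita, Cp, Csf1r, Ctsl, Cxcl16, Cyp4f18, Dab2, Ebf3, Galc, Gpi1, Gpr65, H2-Oa, Hmgcs1, Itga4, Itgam, Klk8, Lpcat3, Lrba, Ltbp3, Mmp12, Ms4a6b, Ms4a6c, Nlrc5, P2ry12, Pilra, Runx2, Spp1, Stab1 and Tlr3. Some named genes not called without LPS overlap as well, among them Farsb, St6gal1, Dpep2, Cx3cr1, Jaml, Runx1, Cebpa, Gas6, Ctsb and Itgav. Alternatives were DESeq2 1.42.0, limma-voom (limma 3.58.1), RLE or library totals for scaling, no filter on low counts, the 6 libraries alone, a covariate for neuron and oligodendrocyte markers, a replicate block, the treatment field as grouping, leaving out each library, and leaving out the conflicting pair. Leaving out shielded library 1 with unshielded library 3 was chosen after seeing the data.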

Additional observations from a re-analysis of the deposited data

Results flagged for a closer look

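For 53 of the genes named in the text, the shield difference without LPS and after LPS differed by edgeR's test of the difference of effects (adjusted p under 0.05). The values in parentheses are the difference without LPS minus that after LPS, on the log2 scale.

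Among genes called higher in unshielded libraries without LPS, 25 had a larger difference after LPS. Their values were Gdf3 (-3.70), Flt3 (-2.88), Cd163 (-2.46), Apoe (-2.45), Runx2 (-2.34), Runx3 (-2.30), Mrc1 (-1.90), Tlr8 (-1.83), Cyp4f18 (-1.74), B3gnt8 (-1.61), Clec4n (-1.57), H2-Eb1 (-1.57), H2-Aa (-1.55), Ltbp3 (-1.50), Igf1 (-1.46), Lyz2 (-1.39), H2-Ab1 (-1.36), Emilin1 (-1.33), Jag1 (-1.33), Cyp27a1 (-1.13), St8sia4 (-1.11), Axl (-0.97), Pf4 (-0.91), Kank2 (-0.71) and H2-DMb2 (-0.62). Border and antigen presentation genes are among them (Mrc1, Pf4, Cd163, H2-Aa, H2-Ab1, H2-Eb1), beside lipid genes (Apoe, Cyp27a1) and Runt factors (Runx2, Runx3).

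A smaller difference after LPS was found for Gpr65 (2.46), Msr1 (1.98), Ms4a6c (1.01), Ms4a6b (0.91), Soat1 (0.84) and Xdh (0.66), which were called higher without LPS and not lower after it. Called in opposite directions, higher without LPS and lower after it, were Ch25h (2.83), C3ar1 (1.93), Ripor2 (1.75), Ctsc (1.44) and Clec7a (1.42).

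Of the genes called lower without LPS, Gpr34 (-1.10), Tlr5 (-1.04), Mertk (-0.60) and Lgmn (-0.51) had a more negative difference without than after LPS, and Pilra (1.07) and Hmgcs1 (0.45) a more negative one after LPS. Genes not called without LPS were Tfrc (2.54), Farsb (1.35), Tnf (1.33), Cx3cr1 (1.20), Irf8 (0.75) and Lpl (0.64), with a more negative difference after LPS, and St6gal1 (-2.42), Dpep2 (-1.31), Clec10a (-1.31), Abcg1 (-1.22) and Mki67 (-1.07), with a more positive one.

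These tests use the libraries without LPS on 1 side of each difference, so they carry the label conflict of shielded libraries 2 and 3. Without that pair the difference was called for 164 genes in all.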

How the results depend on the processing

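The count of 2043 genes called without LPS stayed within a factor of 1.5 with DESeq2, limma-voom, other scaling, no filter on low counts or the 6 libraries alone (1790 to 2938). It was 3558 with the neuron and oligodendrocyte level as a covariate, 781 without shielded library 1 and unshielded library 3 (49.6% of these higher, against 36.8%), 310 without the 2 libraries with conflicting labels and 0 with those 2 grouped by their treatment field. The last 2 fits have 1 shielded library without LPS, and the cause of the other changes was not tested. Leaving out 1 library gave 1156 to 1781. All 2043 genes kept their direction under every alternative, but they were called on these same libraries, so their direction could hardly change. The count after LPS, 8423, ran from 5922 to 10944 over its alternatives, within a factor of 1.5. The difference of the effects was called for 1571 genes with no filter on low counts, 164 without the conflicting pair and 0 by the treatment field, against 2512, and leaving out 1 library gave 1589 to 1865. With no filter 52.3% of these were higher, against 69.5%.

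With the replicate number as a block, fitted on the 6 libraries without LPS, 3689 genes were called, 2018 of the 2043 among them. The like fit of those 6 libraries with no block called 2938. For the difference of the effects, fitted on all 12 libraries, the block gave 2891, against 2512. The numbers were not taken as pairs: same-numbered libraries without LPS had deviation correlations of 0.14, -0.0165 and 0.123, and shielded library 2 correlated best with unshielded library 1 (0.0875).

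With 3 libraries a group, small differences and genes of few counts are poorly resolved, and a gene not being called does not show that it was equal. The common dispersion was 0.0276. The labels of 2 of the 3 shielded libraries conflict, so the calls rest on their titles.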

Other observations

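Sialic acid genes, which build the sugar caps of surface glycans or bind them, changed on both sides, 5 of 21 up and 6 down at a median of -0.18. The called share was 52.4%, beside 10.8% of all tested genes. St3gal5, which makes the ganglioside GM3, stood at 109, 132 and 109.7 CPM in shielded and 24.1, 47.1 and 24.7 CPM in unshielded libraries (3.67-fold lower, edgeR adjusted p = 0.00154). St8sia4, which builds polysialic acid, went the other way, from 42.8, 30.6 and 30.5 to 99.5, 92.2 and 92.8 CPM (2.73-fold higher, adjusted p = 0.000393). Among the lectins that bind these sugars, Siglecf fell 3.25-fold (adjusted p = 0.00423) and Siglech fell, while Siglec1 rose. Siglecg (-0.97) and Cd33 (-0.08) were not called. Without the 2 libraries with conflicting labels 2 members were called higher and 3 lower.

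Ion channels were divided too, with 5 of 22 up and 8 down at a median of -0.30. Their called share was 59.1%, beside 10.8% of all tested genes. Kcna3, a voltage-gated potassium channel of activated lymphocytes and macrophages, rose from 8.97, 3.62 and 5.76 to 26, 19.9 and 23.9 CPM (3.77-fold, adjusted p = 0.00447). Potassium channels that fell included Kcnd1, from 37.2, 51.8 and 40.7 to 13.5, 21.1 and 15.4 CPM (2.6-fold, adjusted p = 0.000399), and the leak channel genes Kcnk12 (-1.81), Kcnk6 (-1.02) and Kcnk13 (-0.48, adjusted p = 0.00489), the last of which is a channel of resting microglia. Among purine receptors and enzymes that handle extracellular nucleotides, 5 of 19 fell, P2rx1 (-1.18), Entpd1 (-0.70), P2ry12, P2ry13 and Adora3, and P2rx4 (0.51) and Cd38 (0.71) rose. Together 36.8% of this list were called. The calls of P2rx4 were lost without shielded library 2 or unshielded library 1 and those of Cd38 without any 1 library but unshielded library 2. Without the 2 conflicting libraries 0 ion channels were called higher and 3 lower, and 0 purine genes higher and 3 lower (edgeR).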
